A study of Zeugodacus cucurbitae with 52 samples.

Results

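The glutathione and UDP-sugar transferases of the melon fly Zeugodacus cucurbitae, a tephritid pest of cucurbit crops, were followed across 13 life stages. A gene was a member if its description in the deposited table contained glutathione S-transferase, UDP-glucuronosyltransferase or UDP-glucosyltransferase, in any case. The rule found 55 of 18241 genes, of which 29 were glutathione S-transferases (GSTs) and 26 UDP-glucuronosyltransferases (UGTs). No description used the name UDP-glucosyltransferase. All 55 passed the filter on low values, which kept 17097 genes.

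RNA was sequenced from whole, untreated animals of a laboratory colony reared on artificial diet, as 4 biological replicates of each stage, 52 libraries altogether. The stages were eggs, larvae 1, 3 and 7 d old (1st, 2nd and 3rd instar in the study), pupae 1, 5 and 9 d old, and virgin adult females and males 1, 5 and 9 d old. The eggs were collected within hours of laying. The labels give no sex for eggs, larvae and pupae. Each library was made from pooled animals, so the SDs given here describe the spread between 4 pools and not between single flies.

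GSTs join the tripeptide glutathione to reactive or foreign compounds, and some bind or isomerise their substrates. UGTs are membrane enzymes of the endoplasmic reticulum that attach a sugar from a UDP-sugar to small lipophilic compounds. The vertebrate enzymes mainly use UDP-glucuronic acid, whereas insect UGTs mainly use UDP-glucose, so the word glucuronosyltransferase in these names is inherited from vertebrate genes. Both families form the conjugation step of detoxification that follows oxidation by cytochrome P450s and precedes export by ABC transporters. In insects both are known for their part in insecticide and plant toxin metabolism, and both have many members that lie side by side in the genome.

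Levels are in TPM, a length-corrected share of the transcripts of each library, so a level is relative to everything else in that library. In whole-animal RNA, fewer cells of a type and less RNA per cell cannot be told apart. Close paralogs can share reads, so levels of neighbouring copies with similar names are uncertain to that extent.

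Of the 29 GSTs, 20 were described as glutathione S-transferase 1 or a variant of it, the name of the Drosophila delta-class enzyme GstD1. A further 2 were described as D7, 3 as theta-1, 2 as microsomal, 1 as S1 (the sigma class) and 1 as a protein with the C-terminal domain of the family. The GSTs were the more abundant family in every stage. Their summed level ranged from 1756 ± 54.0 TPM in eggs to 5597 ± 422 TPM in 1-d-old females (mean ± SD, n = 4). The 26 UGTs summed to between 194 ± 5.27 TPM in eggs and 1168 ± 68.9 TPM in 9-d-old males.

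**Figure D1:**
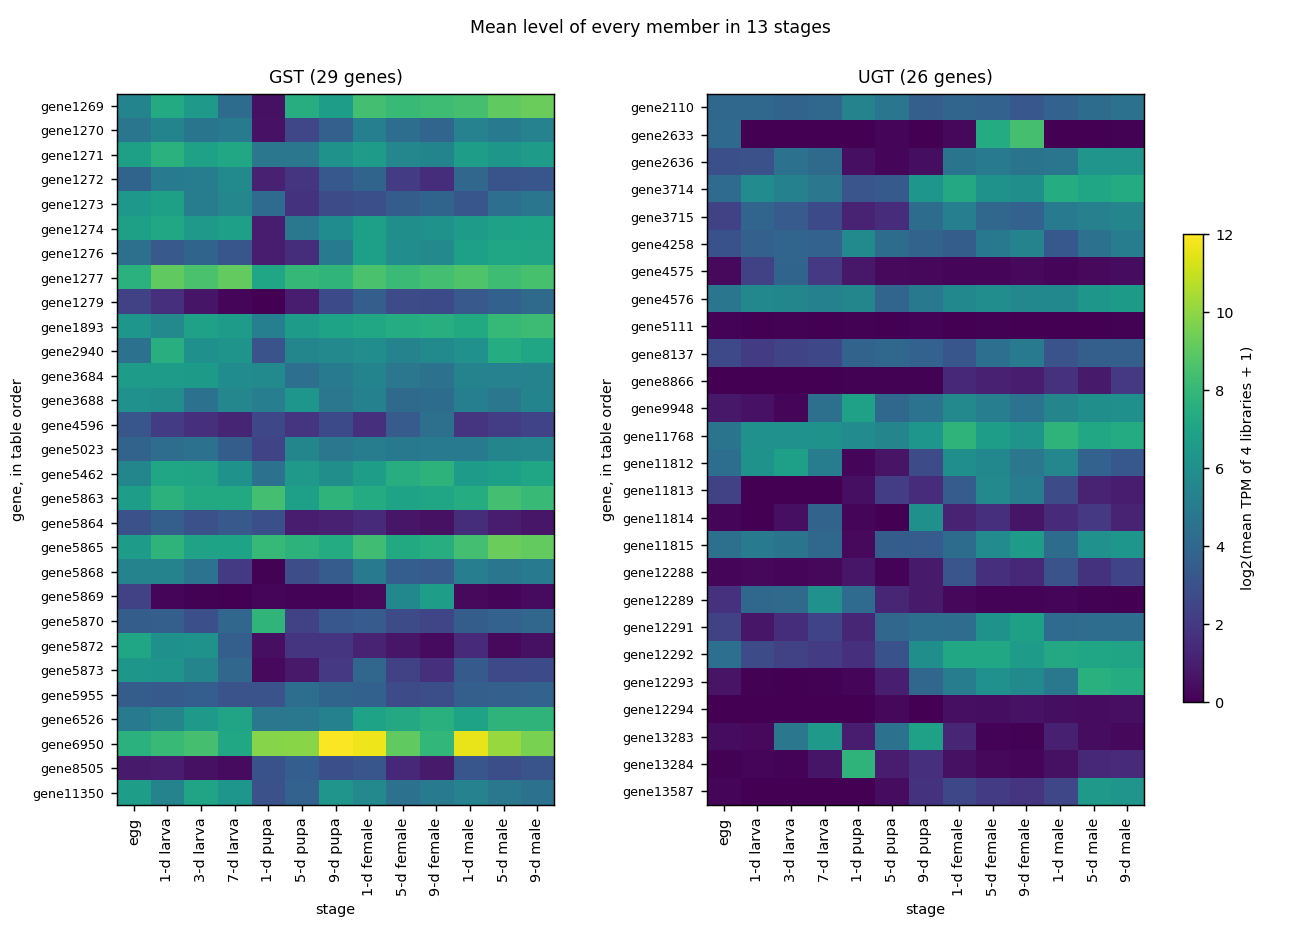
Mean level of each of the 29 GSTs (left) and 26 UGTs (right) in 13 stages, as log2(mean TPM of 4 libraries + 1), with genes in the order of the table. The column of 1-d-old pupae is dark for many GSTs, gene6950 is the brightest row, and several UGTs are visible in 1 stage or 1 sex only.

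The stage of the highest mean was counted for each member. Of the 29 GSTs, 11 had their highest stage mean in a larval stage (37.9%, against 8.43% of all 17097 genes tested). A further 5 were highest in a pupal stage (17.2%, against 33.6%) and 11 in an adult stage (37.9%, against 47.1%). Of the 26 UGTs, 16 were highest in an adult stage (61.5%, against 47.1% of all genes tested). Another 6 were highest in a pupal stage (23.1%, against 33.6%) and 3 in a larval stage (11.5%, against 8.43%). These are descriptions of stage means without a test, and they were not counted under another scaling.

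The GST levels were uneven. The largest was gene6950 (LOC105213265), glutathione S-transferase S1, with a mean of 1214 TPM over the 13 stage means. In Drosophila melanogaster the sigma-class enzyme is abundant in indirect flight muscle and conjugates products of lipid peroxidation. The next were gene1277 (glutathione S-transferase 1-1) at 334.9 TPM, gene5865 at 258.9 TPM, gene1269 at 230.7 TPM and gene5863 at 192.8 TPM. They were followed by gene1893 at 139.1 TPM, the theta-class gene6526 at 109.4 TPM and gene5462 at 106.3 TPM.

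No UGT was as dominant. The highest was gene11768 with a mean of 103 TPM over the 13 stage means, followed by gene3714 at 75.6 TPM and gene12292 at 69.8 TPM. Next came gene4576 at 47.3 TPM, gene12293 at 43.4 TPM, gene2633 at 41.1 TPM, gene9948 at 34.7 TPM and gene11815 at 34.1 TPM. At the other end, gene5111 did not exceed a stage mean of 0.095 TPM, gene12294 of 0.49 TPM and gene8866 of 2.99 TPM.

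Differences were tested for all genes in 1 limma fit on log2(TPM + 1), and a gene was called if it changed by more than 2 on the log2 scale in either direction with a Benjamini-Hochberg adjusted p below 0.05. Over 15 comparisons of consecutive stages or of the sexes at 1 age, and 3 broader contrasts, 42 of the 55 members were called at least once. These were 23 of 29 GSTs and 19 of 26 UGTs. The remaining 13 included gene11768 and gene4576, the UGTs that were present above 10 TPM in all 13 stages, and gene5863 and gene1893 among the abundant GSTs. The share of all genes called at least once was not counted. In single comparisons between 0.322% and 17.2% of all genes tested were called, so 42 of 55 cannot be read as particular to the transferases.

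**Figure D2:**
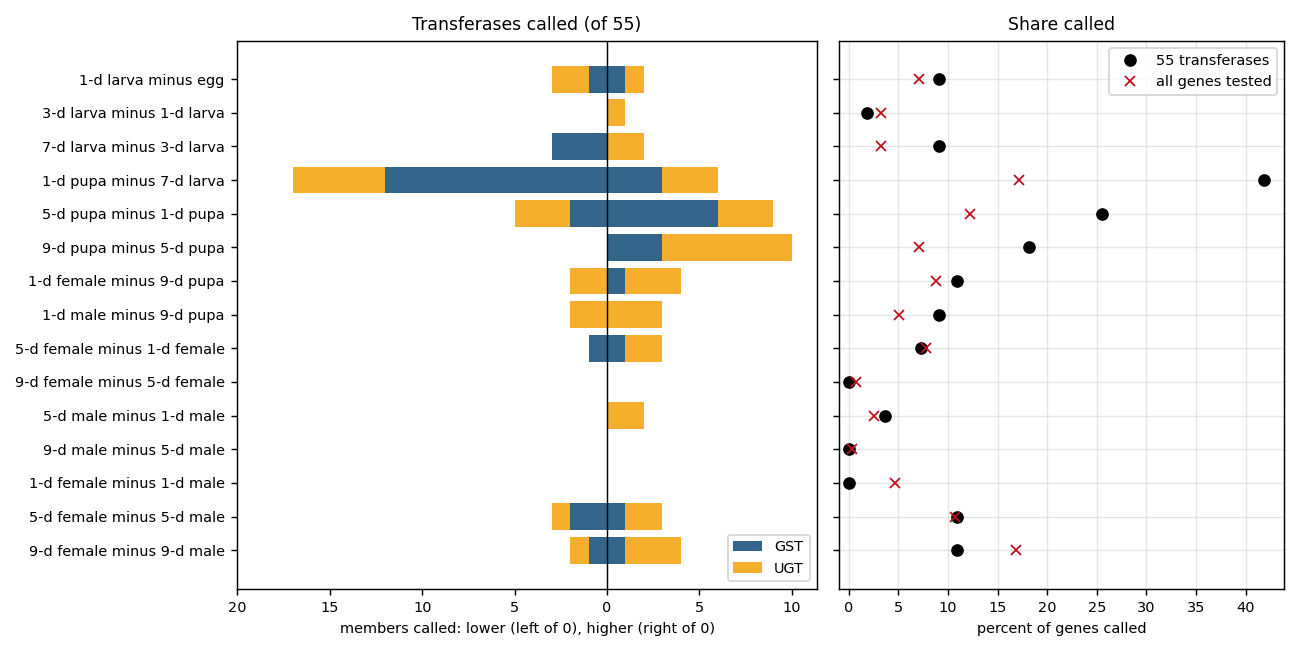
Left, number of GSTs (blue) and UGTs (yellow) called lower (left of 0) or higher (right of 0) in each of 15 comparisons. Right, percent of the 55 transferases (circles) and of all 17097 genes tested (crosses) that were called, which lie farthest apart for 1-d-old pupae against 7-d-old larvae.

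First, 1-d-old larvae were set against eggs. Since the eggs were collected within hours of laying, this step covers embryonic development as well as hatching. Here 5 members were called, 2 higher and 3 lower (9.09%, against 7.09% of all genes tested, of which 2.64% were higher and 4.45% lower). The microsomal GST gene2940, which belongs to a membrane-bound family unrelated in fold to the soluble GSTs, rose from 22.0 ± 0.642 to 181 ± 27.5 TPM (log2 fold change 2.97, SE 0.146, limma adjusted p 2.41e-21). The UGT gene12289 rose from 2.23 ± 0.710 to 15.6 ± 4.69 TPM (log2 fold change 2.35). The UGT gene2633 fell from 11.9, 18.6, 15.1 and 18.4 TPM in eggs to at most 0.04 TPM. The UGT gene11813 and the GST gene5869 also fell, from egg means of 4.21 and 4.14 TPM. All 3 members that fell between these stages were called higher in 5- and 9-d-old females than in males of the same age.

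This first count depended on scaling. The median log2 fold change was 0.08 for the members and -0.35 for all genes tested. After median-of-ratios scaling, which moved the median of all genes to -0.04, the calls were 10 higher and 1 lower. Eggs and 1-d-old larvae also belong to different classes of mean read length in the study's sequencing summary. With a term for that class the calls were 5 higher and 4 lower.

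During larval life the GST profile was led by gene1277, the gene named after GstD1, which in Drosophila can break down DDT. It stood at 533 ± 20.6, 374 ± 61.6 and 551 ± 122 TPM in 1-, 3- and 7-d-old larvae. From day 1 to day 3, 1 member was called (1.82%, against 3.23% of all genes tested, 0.942% higher and 2.29% lower). This was the UGT gene13283, which rose from at most 0.29 TPM in every 1-d-old library to 42.7, 36.5, 11.3 and 12.2 TPM (log2 fold change 4.21, SE 0.252, limma adjusted p 2.34e-17).

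From day 3 to day 7, 5 members were called, 2 higher and 3 lower (9.09%, against 3.23%, with 1.36% higher and 1.88% lower). The GSTs gene5872, gene5868 and gene1269 fell. For gene5872 the decrease was from 70.0 ± 25.7 to 11.3 ± 5.64 TPM, and for gene5868 from 22.9 to 3.17 TPM. The fall of gene1269, from 87.9 ± 53.7 to 17.6 ± 10.3 TPM (log2 fold change -2.21), rested on uneven libraries. Without replicate 3 of the 3-d-old larvae its log2 fold change was -1.86, and in a fit on these 2 stages alone its adjusted p was 0.0607.

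The UGT gene11814 rose from 0.40 ± 0.527 to 13.1 ± 7.34 TPM (log2 fold change 3.24). The UGT gene9948 was called higher because of 1 library. Its 4 values in 7-d-old larvae were 0.61, 77.8, 2.04 and 1.23 TPM, and without replicate 2 the log2 fold change was 0.99. That library was also the lowest of the 4 for gene1274 and gene1277. Over leave-one-out fits the number of members called ranged from 3 to 7.

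Some members of the 3-d-old larvae split the libraries into pairs. The level of gene6950 was 222 and 291 TPM in replicates 1 and 3 and 440 and 432 TPM in replicates 2 and 4. The level of gene5870 was 9.49 and 12.1 TPM in replicates 1 and 3 and 2.13 and 2.83 TPM in the other two. The summed level of 110 trypsins and peritrophins, used as midgut markers, was lower in replicates 1 and 3 (20913 and 23709 TPM) than in replicates 2 and 4 (30880 and 29995 TPM). A list of 13 vitelline membrane and chorion names ran the other way, with 2696 and 2558 TPM against 177 and 335 TPM. The part of either list in this split was not tested.

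Of the consecutive stages, those around the formation of the puparium had the most calls. Between 7-d-old larvae and 1-d-old pupae, 23 of 55 members were called, 6 higher and 17 lower (41.8%, against 17.2% of all genes tested, 12.2% higher and 4.95% lower). The direction was opposite to that of the transcriptome. Of all genes tested 2093 were called higher and 846 lower, and the median log2 fold change was 0.67 for all genes and -0.45 for the members. Of the GSTs 12 were called lower and 3 higher, and of the UGTs 5 were lower and 3 higher. After median-of-ratios scaling, which moved the median of all genes to 0.03, 26 members were called lower and 3 higher. The share of all genes called under that scaling was not counted.

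The GSTs that fell were led by gene1274. Its 4 libraries of 7-d-old larvae held 152, 62.3, 81.9 and 140 TPM, and those of 1-d-old pupae 0.40, 1.07, 0.79 and 1.39 TPM. The stages did not overlap (log2 fold change -5.78, SE 0.220, limma adjusted p 1.22e-25). The level of gene1272 fell from 51.5 ± 9.70 to 1.13 ± 0.673 TPM (log2 fold change -4.66), and that of gene1270 from 31.1 ± 7.50 to 0.50 ± 0.447 TPM (log2 fold change -4.43). Even gene1277, the most abundant GST of the larva, fell from 551 ± 122 to 131 ± 38.9 TPM (log2 fold change -2.09).

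These 4 genes lie in 1 array of 9 members, gene1269 to gene1279, which carry close numbers in the table. In the RefSeq annotation of assembly idZeuCucr1.2, 8 of them were placed on 1 chromosome in the same order, within a span of 11 genes. All of these 9 have names of the delta type (glutathione S-transferase 1, 1-1 or D7). Of the 9 members 7 had their lowest stage mean in 1-d-old pupae, at 0.44 ± 0.305 TPM for gene1269, 0.98 ± 0.706 TPM for gene1276 and with gene1279 listed at 0 in all 4 libraries. The median correlation of log2 stage means between pairs of the array was 0.60 over 13 stages, against 0.12 for all 406 pairs of GSTs. All pairs share the same libraries.

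A second array was less uniform. It holds 8 GSTs between gene5863 and gene5873, placed on 1 chromosome in the same order within a span of 12 genes. All of its members have delta-type names too (glutathione S-transferase 1 or 1-like). The median pair correlation was -0.16, and its 8 members had their highest means in 5 different stages. The GSTs gene5872 and gene5873 fell between 7-d-old larvae and 1-d-old pupae to 0.41 ± 0.271 and 0.24 ± 0.232 TPM. Their neighbour in the array, gene5870, rose from 14.9, 13.01, 18.2 and 13.1 TPM to 230, 193, 357 and 142 TPM. The lowest pupal library was higher than every library of the other 12 stages (log2 fold change 3.80, SE 0.266, limma adjusted p 8.69e-17). By day 5 the same gene stood at 4.03 ± 0.777 TPM, which was also its lowest stage mean.

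In all, 15 of the 29 GSTs had their lowest stage mean in 1-d-old pupae (51.7%, against 6.80% of all genes tested). With median-of-ratios scaling these numbers were 16 of 29 and 12.6%. Of the UGTs, 5 of 26 were lowest there. The GST sum was 1993 ± 319 TPM in 7-d-old larvae and 2112 ± 138 TPM in 1-d-old pupae. Within it gene6950 went from 131, 158, 128 and 138 TPM to 961, 838, 883 and 891 TPM (log2 fold change 2.68, SE 0.131, limma adjusted p 5.71e-22). Without it the other 28 GSTs summed to 1854 ± 326 and 1219 ± 110 TPM. Under median-of-ratios scaling the log2 fold change of gene6950 was 1.26 and it was no longer called.

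**Figure D3:**
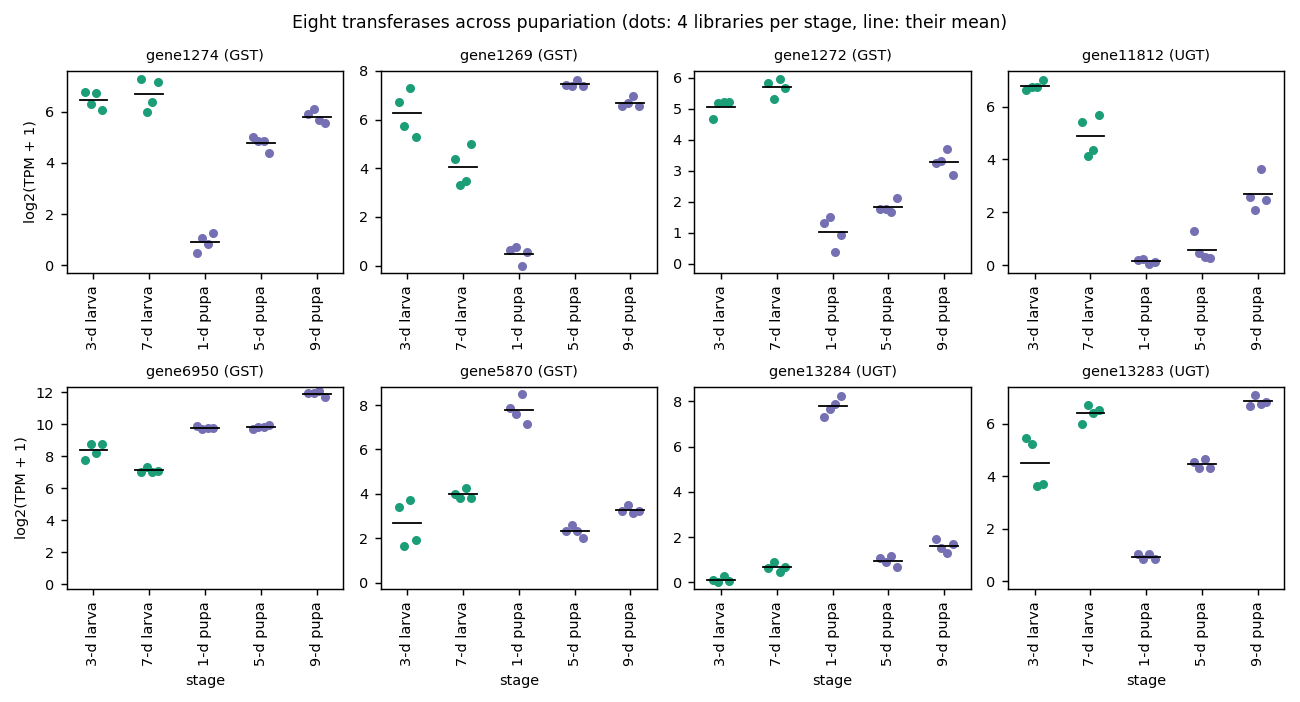
Levels of 4 GSTs and UGTs that fell (upper row) and 4 with other courses (lower row) in 3- and 7-d-old larvae and 1-, 5- and 9-d-old pupae, as log2(TPM + 1), with 4 libraries per stage as dots and their mean as a line. Each panel has its own scale, and gene5870 and gene13284 stand out in 1-d-old pupae alone and gene13283 is high on either side of that stage.

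Among the UGTs, gene13284 (LOC105220158) was almost restricted to the 1-d-old pupa. It measured 156, 203, 237 and 298 TPM there, at most 0.87 TPM in any library of 7-d-old larvae and at most 2.82 TPM in any library of the remaining stages. The log2 fold changes were 7.11 on entry into this stage (SE 0.150, limma adjusted p 8.54e-35) and -6.81 on leaving it. Its neighbour in the table, gene13283, has the same description (2B13-like) and the reverse course. It fell from 85.0 ± 16.8 TPM in 7-d-old larvae to 0.93 ± 0.156 TPM (log2 fold change -5.46).

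A further 2 UGTs were called higher at this step. The level of gene9948 reached 116 ± 17.3 TPM, above all 4 larval libraries including the high one (log2 fold change 4.42). The level of gene4258 went from 12.6 ± 4.53 to 53.0 ± 5.72 TPM (log2 fold change 2.04), a call that was lost under median-of-ratios scaling (0.68). The UGTs gene11812, gene11815, gene2636 and gene11814 fell to means between 0.11 and 0.40 TPM.

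Markers of other tissues moved at the same time. Of the 110 trypsins and peritrophins, 48 were called lower and 4 higher, and their sum fell from between 12704 and 18480 TPM to between 1434 and 1524 TPM, with 36 of 110 under 0.1 TPM in 1-d-old pupae. A list of 5 larval serum protein genes, used as larval fat body markers, summed to between 63492 and 83024 TPM in 7-d-old larvae and between 3209 and 4220 TPM in 1-d-old pupae. The part of these tissues in the lower GST levels was not tested.

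From 1- to 5-d-old pupae, 14 members were called, 9 higher and 5 lower (25.5%, against 12.2%, with 7.17% higher and 4.98% lower). The recovery of the first GST array was uneven. The level of gene1269 went from 0.57, 0.70, 0 and 0.48 TPM to 172, 165, 197 and 165 TPM (log2 fold change 6.96, SE 0.280, limma adjusted p 1.36e-24). For gene1274 the increase was to 26.6 ± 4.90 TPM (log2 fold change 3.86), while gene1273 fell further, from 17.5 to 2.35 TPM (log2 fold change -2.37, or -1.86 and not called under median-of-ratios scaling). The theta-class gene5023 rose from 4.54 ± 3.41 to 44.3 TPM (log2 fold change 3.20). The UGTs gene13283, gene11815 and gene12291 rose, whereas gene13284, gene12289 and gene9948 fell. At 205 ± 15.2 TPM the UGT sum of 5-d-old pupae was close to that of eggs.

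Between 5- and 9-d-old pupae, 10 members were called and all 10 were higher (18.2%, against 7.07%, with 4.22% higher and 2.84% lower). Most libraries of the 9-d-old pupae were among the 6 with under 70% mapped reads in the study's sequencing summary. The level of gene6950 went from 840, 911, 918 and 1009 TPM to 3976, 3974, 4379 and 3307 TPM (log2 fold change 2.08, SE 0.131, limma adjusted p 9.82e-18). It then made up 73.7% of all GST TPM, and the sum of the 28 other GSTs was 1391 ± 172 TPM against 1275 ± 71.6 TPM at day 5.

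**Figure D4:**
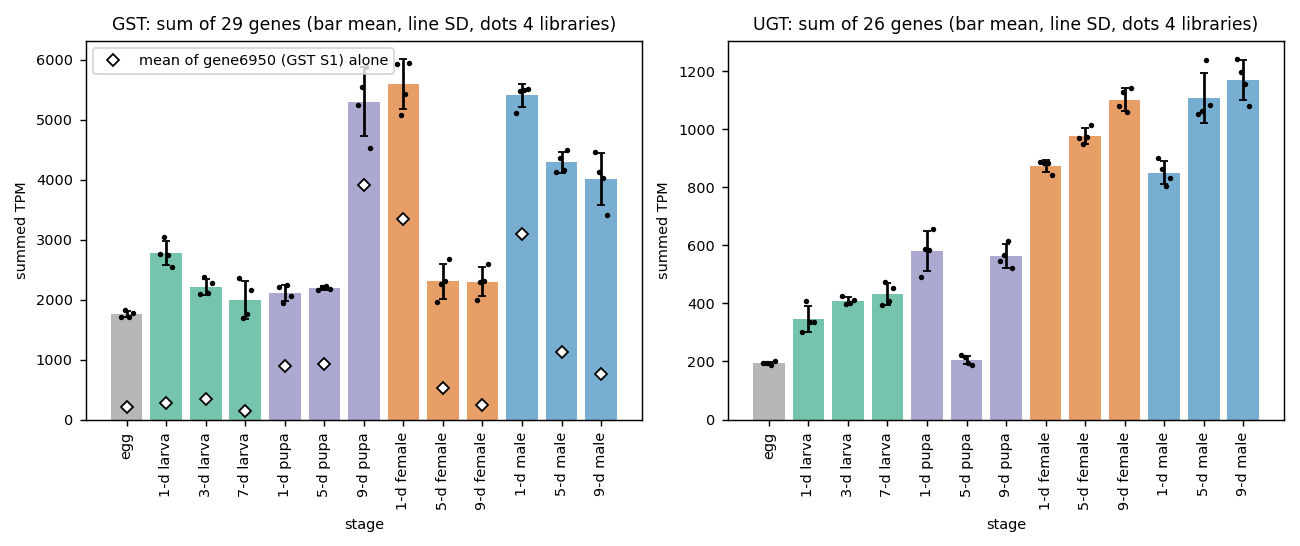
Summed TPM of 29 GSTs (left) and 26 UGTs (right) in 13 stages, as the mean (bar), SD (line) and 4 libraries (dots), with the mean of gene6950 alone as diamonds. The GST sum is highest in 9-d-old pupae and 1-d-old adults, where most of it is gene6950, and the UGT sum is highest in older adults.

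Of the UGTs, 7 rose in this interval. The largest change was that of gene11814, from at most 0.07 TPM in every 5-d-old library to 67.6, 67.3, 58.0 and 67.0 TPM (log2 fold change 6.02, SE 0.235, limma adjusted p 7.2e-25). The levels of gene12292 and gene12293 rose from 7.2 ± 1.10 to 62.7 ± 5.02 TPM and from 1.02 ± 0.416 to 14.4 ± 1.14 TPM. The neighbours gene3714 and gene3715 rose together, to 78.1 ± 23.3 and 18.1 ± 1.92 TPM. Over 13 stages this pair had a correlation of log2 stage means of 0.99. The UGT gene13283 rose again, to 114.5 ± 14.7 TPM, and the GST gene1276 rose from 1.96 ± 0.315 TPM to between 23.2 and 47.4 TPM (log2 fold change 3.39).

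Emergence of the adult ended some of these pulses. Between 9-d-old pupae and 1-d-old females 6 members were called, 4 higher and 2 lower (10.9%, against 8.79%, with 2.66% higher and 6.14% lower), and in 1-d-old males 5 were called, 3 higher and 2 lower (9.09%, against 5.08%, with 2.66% higher and 2.42% lower). Both comparisons share the 4 pupal libraries, most of which had under 70% mapped reads. The UGTs gene13283 and gene11814 fell in both sexes, to means of at most 1.46 TPM in females and 1.80 TPM in males. The UGTs gene2636, gene11812 and gene12288 rose in both. For gene2636 the 9-d-old pupae held 0.31, 0.69, 0.17 and 0.26 TPM, 1-d-old females 32.0, 21.3, 15.1 and 24.7 TPM and 1-d-old males 31.9, 22.8, 28.1 and 16.8 TPM. The GST gene5873 was called in females only, at a log2 fold change of 2.02 that fell to 1.78 without replicate 2 of the pupae.

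The sexes were first compared in newly emerged adults. At day 1 no member was called between the sexes, no member passed the adjusted p of limma alone, and 4 passed an unadjusted p under 0.05. Of all genes tested 4.64% were called, 0.117% higher and 4.52% lower in females. By the adjusted p alone 14% of all genes passed, and 3442 of 17097 passed an unadjusted p under 0.05. The GSTs summed to 5597 ± 422 TPM in these females and to 5407 ± 191 TPM in these males. For the UGTs the sums were 874 ± 20.5 and 850 ± 40.9 TPM. The most abundant UGT of this age was gene11768, with a mean of 226 ± 25.1 TPM for females and 222 ± 5.09 TPM for males.

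Each sex was then followed to day 5, where the shares of members called were near those of all genes. From 1- to 5-d-old females, 4 members were called, 3 higher and 1 lower (7.27%, against 7.81%, with 6.77% higher and 1.04% lower). In males over the same days 2 were called, both higher (3.64%, against 2.58%, with 1.87% higher and 0.708% lower). After median-of-ratios scaling the female calls were 2 higher and 5 lower, and the male calls 2 higher and 1 lower. That scaling moved the median of all genes from 0.05 to -0.10 in females and from 0.12 to 0 in males. The change was compared directly as the difference between the female and the male change. By that test 4 members differed (7.27%, against 7.16% of all genes tested, 5.75% in favour of females and 1.41% of males), namely gene2633, gene5869 and gene11813 in favour of females and gene13587 in favour of males. With median-of-ratios scaling 3 differed in favour of females and 4 of males. The median of all genes for this difference was -0.16 with that scaling and -0.005 without it.

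The member with the largest sex difference on the log2 scale was the UGT gene2633 (LOC105208684, described as 2C1-like). The 4 libraries of 1-d-old females held 0.14, 0.13, 0.23 and 0.23 TPM, those of 5-d-old females 185, 168, 154 and 156 TPM, and those of 9-d-old females 391, 353, 301 and 364 TPM. No male library exceeded 0.07 TPM and it was listed at 0 in all libraries of 7-d-old larvae and 1-d-old pupae. The difference between 5-d-old females and males was 7.33 on the log2 scale (SE 0.082, limma adjusted p 1.99e-45) and at day 9 it was 8.40. At day 9 this gene alone made up 32.0% of the UGT sum of females.

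The GST gene5869 (LOC105212126), a member of the second array, followed the same course at a lower level. The 5-d-old females held 54.7, 57.2, 39.4 and 40.0 TPM and the 9-d-old females 104, 108, 92.9 and 110 TPM, and no other adult library exceeded 0.51 TPM. Its difference between the sexes was 5.44 at day 5 (SE 0.155, limma adjusted p 2.84e-30) and 6.34 at day 9 on the log2 scale. Both genes were detected in eggs, at 16.0 ± 3.19 TPM for gene2633 and 4.14 ± 1.84 TPM for gene5869, and in no larval, pupal, male or 1-d-old female stage did either mean exceed 0.29 TPM. Of all pairs of members this GST and UGT had the highest correlation of log2 stage means, 0.99 over 13 stages.

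The UGT gene11813 rose from 10.1 ± 4.38 to 49.7 ± 17.7 TPM in females between days 1 and 5 (log2 fold change 2.20, or 1.54 and not called under median-of-ratios scaling). In 5-d-old males it was at 1.24 ± 0.551 TPM, a log2 difference of 4.47. The UGT gene12291 was called at day 9 only, at 116, 118, 113 and 106 TPM in females and 18.3, 20.9, 19.8 and 15.8 TPM in males (log2 difference 2.55). Under median-of-ratios scaling this difference was 1.79 and not called.

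Vitelline membrane, chorion and yolk transcripts were present in the same females, the vitelline membrane and chorion ones at uneven levels. A list of 13 vitelline membrane and chorion genes summed to between 332 and 40550 TPM in 5-d-old females, between 560 and 12886 TPM in 9-d-old females and between 58.6 and 253 TPM in males. All 13 were above 0.1 TPM in 5-d-old females as a mean. Stage means above 1 TPM were reached by 11 of the 13 in 5- and in 9-d-old females, and by 4 to 6 in males. The list was not limited to adult females, since 5 of the 13 also exceeded 1 TPM in each larval stage. In some libraries of 3-d-old larvae its sum was above the lowest of these female libraries. Across the same libraries of 5-d-old females gene2633 ranged from 154 to 185 TPM. In replicate 4, where the list of 13 genes was lowest, gene2633 stood at 156 TPM and gene5869 at 40.0 TPM. The gene with the course most like gene2633 over all genes tested was gene7279, chorion peroxidase (r of 0.9996 over 13 stage means). This likeness was looked for with the values of gene2633 in view, and the points share all libraries. The part of ovarian content in the female levels of these members was not tested.

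**Figure D5:**
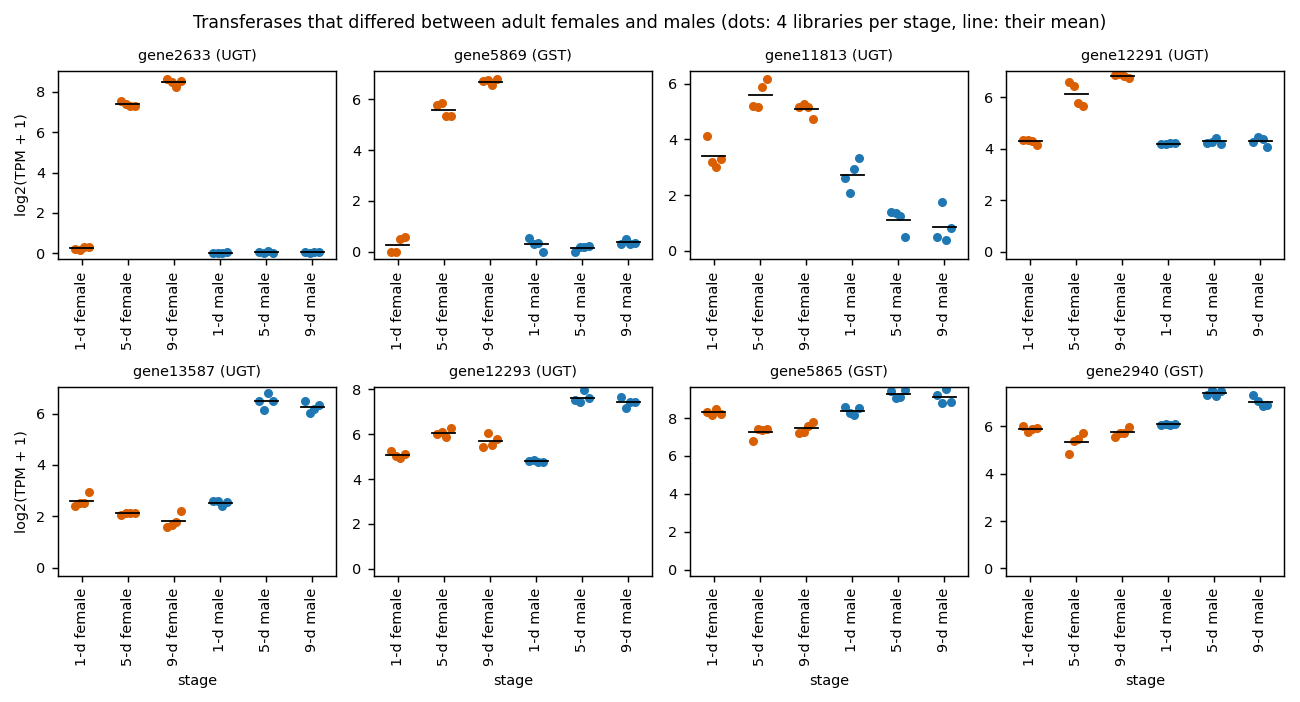
Levels of 8 transferases called between 5- or 9-d-old females and males or between 1- and 5-d-old males, as log2(TPM + 1), with 4 libraries per stage as dots and their mean as a line. Females (orange) of 5 and 9 d are high for gene2633, gene5869, gene11813 and gene12291, and males (blue) of 5 and 9 d are high for gene13587, gene12293, gene5865 and gene2940.

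In males the UGT gene13587 (LOC105220493) rose from 5.02, 5.05, 4.32 and 4.82 TPM at day 1 to 89.5, 68.8, 109 and 88.5 TPM at day 5 (log2 fold change 3.94, SE 0.129, limma adjusted p 1.96e-27). In females it stayed between 2.04 and 6.79 TPM over all 12 libraries. The UGT gene12293 rose in males from 26.8 ± 1.04 to 198.5 ± 33.1 TPM (log2 fold change 2.83). In females its mean went from 32.9 ± 3.28 to 66.0 ± 7.89 TPM, which was not called. For gene12293 neither the difference between the female and male changes nor any comparison of the sexes was called.

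A pair of GSTs was higher in 5-d-old males than in females of that age. The microsomal gene2940 was at 170 ± 14.5 TPM in males and 40.8 ± 9.75 TPM in females (log2 difference -2.06), and gene5865 at 620 ± 94.8 and 153.5 ± 30.3 TPM (log2 difference -2.02). Both differences lie near the threshold, and without replicate 1 of the females they were -1.89 and -1.86. At day 9 the GST gene8505 was called lower in females at 0.85 ± 0.811 against 7.64 ± 5.60 TPM. Its libraries overlapped, and without replicate 4 of the males the difference was -1.67.

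By the adjusted p without the fold threshold, more members were lower than higher in females. At day 5, 6 members were called between the sexes, 3 higher and 3 lower in females (10.9%, against 10.7%, with 4.84% higher and 5.85% lower). By the adjusted p of limma alone 9 members were higher in females and 28 lower, where 28.7% and 29.1% of all genes tested were higher and lower. At day 9, 6 members were called, 4 higher and 2 lower in females (10.9%, against 16.9%, with 10.1% higher and 6.81% lower), and by the adjusted p alone 9 were higher and 33 lower, against 32.9% and 35.1% of all genes tested. The median log2 difference of the members was -0.54 at day 5 and -0.91 at day 9, against -0.07 and -0.12 for all genes. Under median-of-ratios scaling the calls at day 9 were 3 higher and 16 lower in females. That scaling also moved the median of all genes at day 9 to -0.35, and the share of all genes called under it was not counted. Some tissue marker lists were also more often lower than higher in females by the adjusted p alone. Of the 110 midgut genes 12 were higher and 34 lower in females at day 5, and 12 higher and 56 lower at day 9. Of 35 odorant-binding protein genes, used as antennal markers, 1 was higher and 19 lower at day 5, and 2 higher and 26 lower at day 9, and all 4 opsin genes were lower at both ages. The part of these tissues in the lower levels of the transferases was not tested.

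The GST sum was 2304 ± 298 TPM at day 5 for females and 4289 ± 171 TPM for males, and without gene6950 the sums were 1775 ± 228 and 3168 ± 178 TPM. Yolk protein transcripts took between 15639 and 48675 TPM of the female libraries at day 5 and between 340 and 433 TPM of the male ones. The part of yolk transcripts in these shares was not tested. The UGT sums were closer, at 976 ± 27.8 and 1108 ± 86.5 TPM.

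The level of gene6950 fell after emergence in both sexes, but only the female fall from day 1 to day 5 was called. In females it went from 3620, 3035, 3007 and 3710 TPM at day 1 to 495, 455, 488 and 678 TPM at day 5 (log2 fold change -2.67, SE 0.131, limma adjusted p 1.25e-21). In males it was 3089 ± 200 TPM at day 1, between 1053 and 1174 TPM at day 5 and 756 ± 103 TPM at day 9, and neither male step was called. The difference between the female and male changes from day 1 to day 5 was not called for gene6950 either. The libraries of 1-d-old adults and those of older adults belong to different classes of mean read length. In 7-d-old larvae, the only stage with libraries of both classes, gene6950 was at 131 and 158 TPM in one class and 128 and 138 TPM in the other. With a term for the class the female log2 fold change was -2.79.

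Between days 5 and 9 no member was called in females or in males, where few genes were called at all, namely 0.766% (0.146% higher, 0.62% lower) and 0.322% (0.0526% higher, 0.269% lower) of all genes tested. An unadjusted p under 0.05 was reached by 22 members in females and 9 in males, and by 7474 and 3692 of the 17097 genes tested. The limma adjusted p alone was reached by 16 and 5 members, where 39.6% and 7.42% of all genes passed. Among the members that passed in females were gene2633, from 166 ± 14.1 to 352 ± 37.6 TPM (log2 fold change 1.08, limma adjusted p 2.84e-14), and gene5869, from 47.8 ± 9.43 to 104 ± 7.60 TPM (log2 fold change 1.12, limma adjusted p 6.52e-08).

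Adults were also set against larvae as a whole. Taking the mean of the 6 adult stages against the mean of the 3 larval stages, 20 members were called, 13 higher and 7 lower in adults (36.4%, against 14.2%, with 9.93% higher and 4.27% lower). Of the UGTs 8 were higher and 3 lower, and of the GSTs 5 were higher and 4 lower. Under median-of-ratios scaling the members split into 9 higher and 10 lower. That scaling also moved the median log2 difference of all genes from 0.58 to 0.11, and the share of all genes called under it was not counted.

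Opposite courses were found within a UGT run, 6 members between gene12288 and gene12294. In RefSeq gene12289, gene12291 and gene12292 were placed next to each other in this order on 1 chromosome, and gene12293 was on an unplaced sequence. The larval member gene12289 reached 68.3, 70.7, 68.4 and 57.3 TPM in 7-d-old larvae and did not exceed 0.23 TPM in any adult library (log2 difference of adults to larvae -4.61). In the same run gene12292 had a larval mean of at most 5.92 TPM and adult means between 99.6 and 151 TPM (log2 difference 4.67). For gene12293 the larval means were at most 0.05 TPM and the adult means between 26.8 and 198.5 TPM (log2 difference 6.07, SE 0.059, limma adjusted p 1.31e-48). The correlation of log2 stage means was 0.93 between gene12292 and gene12293 and -0.91 between gene12289 and gene12292.

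Against larvae and adults combined, pupae had 12 members called, 1 higher and 11 lower (21.8%, against 6.25%, with 2.84% higher and 3.42% lower). The 8 GSTs among them were all lower. Of the 110 midgut genes 52 were called lower and 5 higher in the same contrast, with a median log2 difference of -1.62, and of the 35 antennal genes 26 were lower and 5 higher by the adjusted p alone. By that measure 56.7% of all genes tested were higher and 19% lower in pupae. The part of these tissues was not tested. The UGTs gene11812 and gene2636 showed the largest differences, -4.23 and -4.14 on the log2 scale. For gene11812 the means were 67.8, 109.8 and 32.0 TPM in larvae, 0.11, 0.57 and 6.003 TPM in pupae and 63.0 and 46.6 TPM in 1-d-old females and males. The only member called higher in pupae was gene13284.

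None of the 3 genes of glutathione synthesis was called in any of the 18 comparisons. Glutamate-cysteine ligase, gene9807, the rate-limiting enzyme, and its regulatory subunit, gene9775, had their highest means in 9-d-old females, at 93.0 ± 2.05 and 110.1 ± 7.15 TPM. Glutathione synthetase, gene5746, was highest in 9-d-old males at 65.2 ± 5.31 TPM. Of 12 genes that use or break down glutathione, 1 rose and 1 fell between 1- and 5-d-old pupae, where 7.17% of all genes were called higher and 4.98% lower. The gamma-glutamyltranspeptidase gene6531, of an enzyme class that cleaves glutathione outside the cell, was at 25.4, 31.2 and 43.3 TPM in males of 1, 5 and 9 d and at 0.14, 0.19 and 0.32 TPM in females. Thioredoxin reductase gene6534, which in flies stands in for glutathione reductase, and the glutathione peroxidase gene1852 had the highest means of that list, 217 and 164 TPM over 13 stages.

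Of 7 genes of UDP-sugar supply, 2 rose and 1 fell between 7-d-old larvae and 1-d-old pupae, where 12.2% of all genes were called higher and 4.95% lower. UDP-glucose 6-dehydrogenase, gene1763, makes UDP-glucuronic acid from UDP-glucose. It went from 14.6 to 97.5 TPM and returned to 11.8 TPM by day 5 (log2 fold changes 2.65 and -2.94). The phosphoglucomutase gene1686 fell at the same step, from 122 to 25.9 TPM. UTP-glucose-1-phosphate uridylyltransferase, gene1825, which makes UDP-glucose, had the highest mean of the list at 213 TPM. A second phosphoglucomutase, gene3679, was at 55.6 TPM in 5-d-old males and 0.40 TPM in females.

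Relatives under other names also changed in pupae. Of 5 GST-fold enzymes, gene4255 (pyrimidodiazepine synthase-like, an enzyme of the red eye pigment pathway in Drosophila) rose from 10.2 to 155 TPM in 1-d-old pupae (log2 fold change 3.78), and gene4254 had the highest mean, 113 TPM. The ganglioside-induced differentiation protein gene9711 fell and rose again around day 5, at 0.85 TPM in that stage. Of 2 UGT-type galactosyltransferases, gene5852 rose to 21.1 TPM in 5-d-old pupae and fell again, and gene12282 was not called in any comparison.

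Other detoxification families gave other counts. Between 7-d-old larvae and 1-d-old pupae, 15 of 95 cytochrome P450s were called higher and 15 lower, 12 of 45 ABC transporters higher and 2 lower, 3 of 32 carboxylesterases higher and 1 lower, and none of 7 sulfotransferases. For all genes tested the shares at this step were 12.2% higher and 4.95% lower. The difference between these families was not tested. In 9- against 5-d-old pupae 18 P450s rose and 3 fell (all genes 4.22% and 2.84%), among them gene5976 (4g1-like, a name whose Drosophila bearer makes cuticular hydrocarbons) at 954 against 10.4 TPM. In adults against larvae 14 carboxylesterases were higher and 1 lower (all genes 9.93% and 4.27%), among them gene3158 (venom carboxylesterase-6-like, log2 difference 8.02). In 5-d-old males the P450 gene1100 (305a1) reached 2149 TPM, against 4.67 TPM in females. The sulfotransferase list holds 3 genes that act on polysaccharides by their names, and its estrogen sulfotransferase gene11674 rose from 0.05 to 49.8 TPM in 5-d-old pupae.

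Of 4 candidate regulators, gene6842 (the ARNT homolog, a partner of xenobiotic receptors) rose in 1-d-old pupae from 6.33 to 28.9 TPM. The transcription factor Maf gene12599 rose from 0.74 to 19.3 TPM between 1- and 5-d-old females and was at 0.34 TPM in males of day 5. The MafK gene4453, whose relatives pair with the oxidative stress factor CncC in Drosophila, and the Keap1 gene13350, a repressor of that factor, had the highest means of the list, 63.5 and 23.2 TPM over 13 stages.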

How the data were processed

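Whole-body RNA of 13 stages was sequenced in 52 libraries, 4 biological replicates per stage by the labels. The authors trimmed reads with SeqPrep and Sickle, mapped them with HISAT2 (v2.1.0), assembled transcripts with StringTie and quantified genes with RSEM (v1.3.1). They deposited TPM, a length-corrected relative abundance, rounded to 2 decimals, in 1 table with gene lengths and descriptions. The deposited TPM do not keep depth, so no counting interval was given, and the DESeq2 tests of the study were not repeated. The genome build is not given in the sources used here, so no coordinates or sequences were printed. Of the 55 members 47 were matched by identifier to RefSeq, assembly idZeuCucr1.2, which was used for gene order only.

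A gene was kept if 4 or more libraries exceeded 0.1 TPM. Values were transformed to log2(TPM + 1) and fitted with limma (v3.58.1, R v4.3.3), with 1 mean per stage over all libraries and a trended, robust variance. A gene was called at a Benjamini-Hochberg adjusted p under 0.05 and a log2 change above 2 in size. Fold changes on this scale understate the change of low genes. The fit was tested on simulated data. Stages follow the labels, and mean read length and mapped share come from the study's sequencing summary. Alternatives were another pseudocount, other filters, median-of-ratios scaling, a replicate block, a term for read length class, fits on the compared stages alone, leaving out 6 libraries with under 70% mapped reads, and leaving out each library. Under these alternatives only members were counted, so no share of all genes called stands beside those counts.

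The members, lists and tests were chosen with earlier results of these data known. Named members were the 8 of highest mean in each family, up to 3 called members per comparison, family and direction whose libraries did not overlap and whose higher mean reached 10 TPM, and those called between the sexes. From each pathway list the 2 of highest mean and the called gene of largest change per comparison could be named. Some members outside this rule were named after their values were seen, as neighbours or as calls that did not hold. As a check of the sex labels, 10 testis genes summed to between 2072 and 3799 TPM in males and at most 44.3 TPM in females.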

Additional observations from a re-analysis of the deposited data

Results flagged for a closer look

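The change from day 1 to day 5 differed between the sexes for 4 members, tested as an interaction in limma. This was 7.27% of the members, near the 7.16% of all genes tested. The difference, female minus male on the log2 scale, was 7.10 for gene2633, 5.47 for gene5869, 3.82 for gene11813 and -4.42 for gene13587. At day 5 the female and male libraries of these genes did not overlap. The genes were chosen by their change in these same libraries, so the lack of overlap adds no support. The share of all genes without such overlap was not counted.

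Single libraries stood apart from the other 3 of their stage in 14 of the 184 groups of 4 libraries examined by Dixon's test, where chance gives about 1 in 20. The level of gene9948 in 7-d-old larvae was 77.78 TPM in replicate 2 against at most 2.04 TPM in the others. The level of gene5865 in 5-d-old females was 108.27 TPM in replicate 1 against at least 163.8 TPM, and that of gene11814 in 9-d-old pupae 57.99 TPM in replicate 3 against at least 67 TPM. Low levels gave 4 more cases. These were gene11812 in 5-d-old pupae (1.45 TPM in replicate 1), gene5111 in eggs (0.23 TPM in replicate 3), gene5869 in 9-d-old pupae (0.32 TPM in replicate 2) and gene2633 in 9-d-old males (0 TPM in replicate 2).

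Among the pathway genes, 5-d-old pupae of replicate 3 stood high for gene1763 at 14.2 TPM, gene5852 at 22.18 TPM and gene9711 at 1.45 TPM. For gene5976 replicate 1 of the 9-d-old pupae was high at 1093.76 TPM. The GST sum of 1-d-old males was low in replicate 1, at 5121.84 TPM. The UGT sum was low in replicate 4 of 1-d-old females, at 843.08 TPM, and high in replicate 3 of 5-d-old males, at 1236.29 TPM.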

How the results depend on the processing

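No named change reversed its direction under any alternative run. Of 87 named changes in 34 genes, 13 lost their call under at least 1 alternative and 8 of these when 1 library was left out. Apart from fits that left out 1 library, counts moved by over 1.5 times in 7 comparisons. For 1-d-old larvae against eggs, where 5 members were called, there were 8 with a pseudocount of 0.1, 11 with median-of-ratios scaling and 9 with the read length term. For 7-d-old against 3-d-old larvae 5 became 3 when only these stages were fitted. With a pseudocount of 0.1 the calls became 8 between 9-d-old pupae and 1-d-old males, 7 between 1- and 5-d-old females and 4 between 1- and 5-d-old males. With median-of-ratios scaling they became 7 between 1- and 5-d-old females, 19 between 9-d-old females and males and 7 for the sex difference in the change from day 1 to day 5. The cause of these shifts was not tested. That scaling moved the median log2 change of all genes from 0.67 to 0.03 for 1-d-old pupae against 7-d-old larvae. Leaving out 1 library gave 1 to 2 calls for 3-d-old against 1-d-old larvae (2 without replicate 4 of the 1-d-old or without replicate 2 or 4 of the 3-d-old larvae), 3 to 7 for 7-d-old against 3-d-old larvae (3 without replicate 2 of the 7-d-old larvae) and 21 to 24 for 1-d-old pupae against 7-d-old larvae. With the replicate number as a block every count of members called was unchanged, for example 23 for 1-d-old pupae against 7-d-old larvae and 5 for 1-d-old larvae against eggs. The numbers did not pair the samples, since in 0 of 15 comparisons were all same-numbered correlations over 0.1 (range -0.30 to 0.22), and 17 of 60 samples correlated best with their own number. The depth of the libraries is unknown from TPM.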
